A study of Homo sapiens with 4 samples.

Results

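The Wnt antagonists, feedback genes and TCF factors followed here are 10 genes, chosen by symbol from the 57905 genes of a count table of A549 cells: DKK1, DKK3, RNF43, ZNRF3, AXIN2, NKD1, LGR4, TCF7, TCF7L2 and LEF1. A549 is an established human lung adenocarcinoma cell line. RNA was sequenced from 4 libraries of poly(A) RNA, 1 for each condition: cells with a scramble control hairpin (sc), cells with a hairpin against DCBLD2 (shDCBLD2), cells with an empty vector (vector control) and cells with a DCBLD2 overexpression vector. The last is called the library labelled overexpression, because its DCBLD2 transcript was lower than in the vector control. The lines were stable and made with lentivirus produced in HEK293T cells. Hairpin vectors carry puromycin resistance and the overexpression vector and its empty form carry blasticidin resistance, so sc and the vector control differ in more than 1 way and are not replicates. The shDCBLD2 library is titled shD5, and which hairpin sequence that is was not given in the sources used here. One question of the study was whether DCBLD2, a transmembrane receptor-like protein, affects Wnt/β-catenin signaling.

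Counts on genes came to 19104052 in sc, 21537283 in shDCBLD2, 18718562 in the vector control and 16601633 in the library labelled overexpression. Levels are given as CPM (counts relative to the library total, scaled by TMM factors), or as the deposited FPKM where genes are compared, since FPKM takes the length of each gene into account. Each condition has 1 library, so differences cannot be checked in replicates and p-values are not given. Comparisons are thus of libraries, and each 95% interval covers counting error only. In these cultures fewer cells that express a gene and less RNA of it per cell cannot be told apart. A gene was called higher or lower where the ratio reached 2-fold with an interval that did not include 0 on the log2 scale. Of the 57905 genes, 13966 passed a filter of a mean of at least 1 CPM over the 4 libraries. All 10 members passed, LEF1 only through the library labelled overexpression.

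The targeted gene was examined first. DCBLD2 (ENSG00000057019) had 9859 counts in sc, 4259 in shDCBLD2, 7970 in the vector control and 4000 in the library labelled overexpression. The log2 ratio of shDCBLD2 to sc was -1.35 (-1.40 to -1.30), as the label says. In the library labelled overexpression it was -0.84 (-0.90 to -0.79) relative to the vector control, against the label. Every direction given for that library is thus drawn from cells in which the DCBLD2 transcript was lower than in the control. The 11 genes fixed as A549 markers (keratins, aldo-keto reductases, aldehyde dehydrogenases and others) were above 3 counts in all 4 libraries. They summed to 35782 CPM in sc, 23875 CPM in shDCBLD2, 30891 CPM in the vector control and 34061 CPM in the library labelled overexpression. In shDCBLD2 4 of them (EPCAM, CDH1, AKR1C1 and ALDH3A1) were called lower than in sc, where 5.62% of all genes were. Of the 11, 1 (EPCAM) was called higher in the library labelled overexpression than in the vector control, where 6.42% of all genes were. The 5 lung lineage markers were near the floor in every library, between 1.23 and 1.58 CPM in sum, with the most counts on NAPSA. Of these, NKX2-1 had 7 counts in the library labelled overexpression and 0 in the other libraries.

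Wnt ligands bind Frizzled receptors and the co-receptors LRP5 and LRP6, which stops a cytoplasmic destruction complex from degrading β-catenin. β-Catenin then enters the nucleus and acts on target genes together with TCF/LEF factors. Several targets encode inhibitors of the pathway, so their transcripts are used as readouts of its activity, and in lung adenocarcinoma the pathway is known for its links to migration and metastasis. DKK1 is a secreted protein that blocks LRP5 and LRP6. RNF43 and ZNRF3 are membrane ubiquitin ligases that remove Frizzled from the cell surface, and LGR4 is a receptor for R-spondins, which inhibit both ligases. AXIN2 is a scaffold of the destruction complex and a feedback target, and NKD1 binds Dishevelled.

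Promoter sequences are shown for the 3 genes that were called and have an entry in the RefSeq promoter table (GRCh38.p14). Of the 10 members, 6 were matched, with 10 promoters in all. AXIN2, DKK3, NKD1 and ZNRF3 were not matched. Each sequence runs from 250 bases before to 50 bases after the start of the gene, 5′ to 3′ on the strand of the gene. Capitals mark the letters CTTTGA and TATAAA (or TCAAAG and TTTATA on the other strand). CTTTGA is a form of the core letters bound by TCF/LEF factors, and other forms were not searched for or marked. The motifs share no position in these promoters. DKK1 lies on the plus strand (chr10:52314031-52314330), LEF1 on the minus strand (chr4:108166252-108166551) and the RNF43 start shown on the minus strand (chr17:58417485-58417784).

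DKK1: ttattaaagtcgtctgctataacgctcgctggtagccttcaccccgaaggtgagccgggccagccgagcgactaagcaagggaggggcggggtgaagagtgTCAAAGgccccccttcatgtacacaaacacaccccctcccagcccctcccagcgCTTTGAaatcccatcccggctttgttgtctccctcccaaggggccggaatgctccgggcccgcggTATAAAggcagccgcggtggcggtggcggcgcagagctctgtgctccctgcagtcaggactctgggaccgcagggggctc

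LEF1: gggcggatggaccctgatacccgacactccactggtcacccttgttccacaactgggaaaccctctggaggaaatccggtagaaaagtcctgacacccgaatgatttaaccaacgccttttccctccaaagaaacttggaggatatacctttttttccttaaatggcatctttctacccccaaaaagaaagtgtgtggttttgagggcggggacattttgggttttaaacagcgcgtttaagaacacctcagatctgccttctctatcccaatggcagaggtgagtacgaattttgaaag

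RNF43: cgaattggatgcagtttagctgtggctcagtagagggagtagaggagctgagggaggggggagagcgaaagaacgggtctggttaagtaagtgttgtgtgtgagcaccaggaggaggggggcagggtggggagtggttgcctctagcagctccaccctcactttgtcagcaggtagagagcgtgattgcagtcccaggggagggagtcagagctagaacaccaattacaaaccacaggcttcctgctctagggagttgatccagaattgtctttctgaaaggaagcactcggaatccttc

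The DKK1 promoter holds 2 matches to CTTTGA or its reverse, which start 149 and 95 bases before the start of the gene. It also holds 1 TATAAA, 30 bases before the start. Of 34796 different promoters, 12.9% hold at least 1 match to CTTTGA or its reverse, 1.30% hold 2 or more and 11.6% hold TATAAA or its reverse. The promoters of LEF1 and RNF43 hold neither of the searched sets of letters, nor does the other RNF43 promoter in the table. Among the other members, TCF7 has 1 TTTATA in 1 of its 2 promoters, while the 3 promoters of TCF7L2 and that of LGR4 have no match. A match is a description of letters and shows no binding, and promoters without a match may hold other forms of the TCF/LEF letters.

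In the library labelled overexpression, where DCBLD2 was lower against the label, RNF43, NKD1 and LEF1 were higher than in the vector control and DKK1 was lower. These are 3 of 10 members called higher, where 6.42% of all 13966 genes were, and 1 of 10 called lower, where 5.35% of all genes were. LEF1 is 1 of the 3 and passed the filter only through the library in which it is high; without such genes 2 members were called higher. In shDCBLD2 against sc, 0 members were called higher, where 1.16% of all genes were, and 2 (DKK1 and RNF43) were called lower, where 5.62% were. Between the vector control and sc, 0 members were called higher against 2.22% of all genes, and 1 (RNF43) was called lower against 1.89%. These comparisons share libraries: the vector control serves in the first and last of them, and sc in the last 2. The median log2 ratio of the members was 0.64 in the library labelled overexpression against -0.04 over all genes, also with LEF1 at its bound. It was -0.54 over the 9 members other than LEF1 in shDCBLD2, against 0.01 over all genes, and -0.22 for the vector control against sc, where all genes stood at -0.01. The medians of the 11 A549 markers were 0.56, -0.86 and -0.33 in the same order of comparisons. Members were chosen with earlier results of these data known, so these counts and medians are descriptions.

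**Figure D1:**
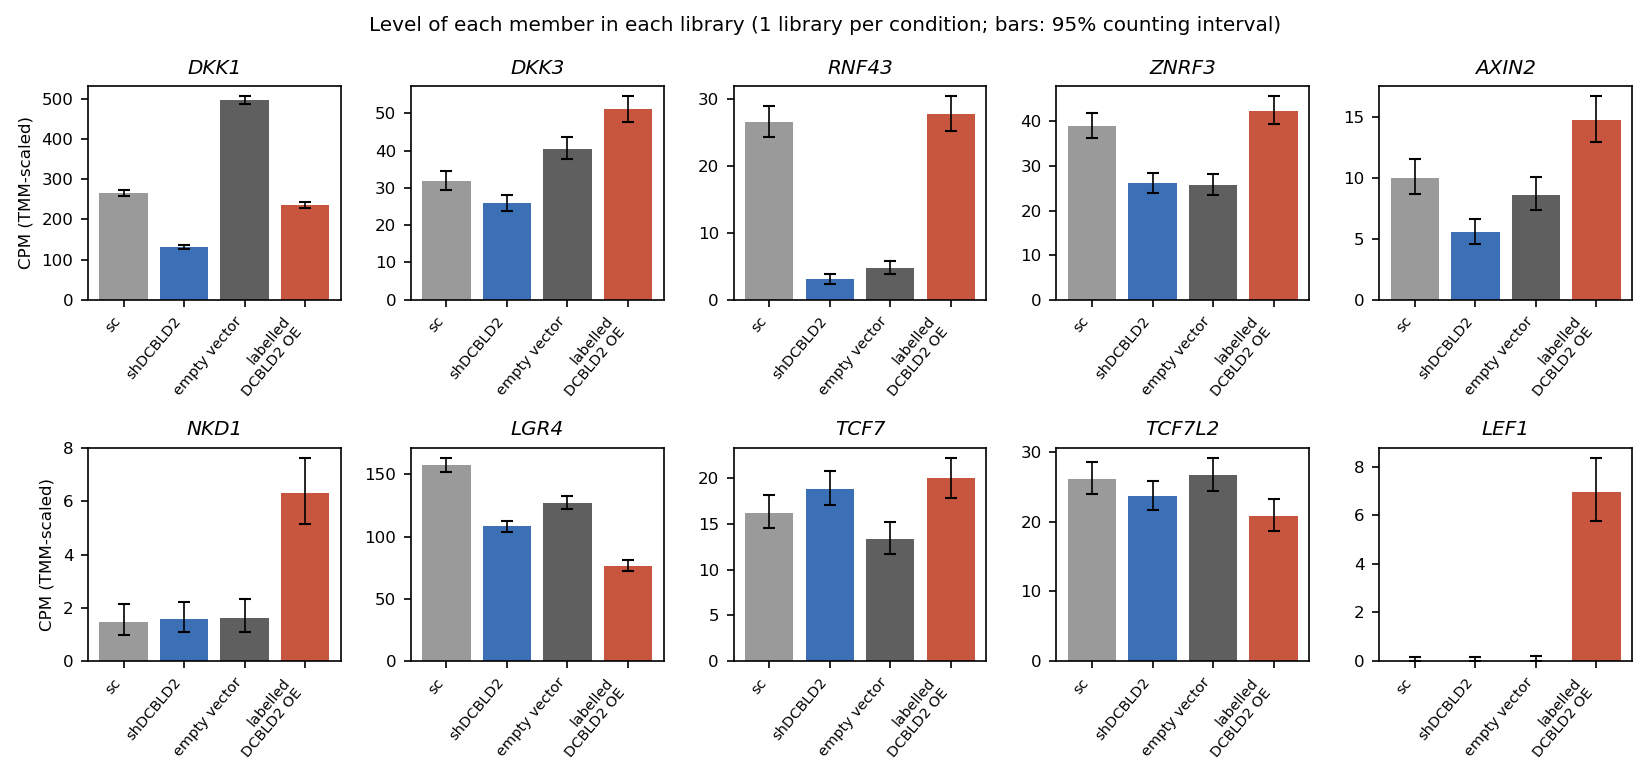
Level of each of the 10 members in CPM (vertical axes, linear from 0, each with its own scale) in sc, shDCBLD2, the vector control (empty vector) and the library labelled overexpression (labelled DCBLD2 OE). Bars are single libraries and error bars 95% Poisson intervals for counting error only. RNF43 stands at 26.6 and 27.8 CPM in sc and the library labelled overexpression but at 3.06 and 4.74 CPM in the others, and LEF1 was counted in 1 library only.

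Levels per length were ordered alike at the top of the list in each library. DKK1 was the most abundant member by FPKM and LGR4 came next in all 4 libraries, with DKK3 after them. The FPKM of DKK1 was 124 in sc, 60.0 in shDCBLD2, 221 in the vector control and 107 in the library labelled overexpression. That of LGR4 was 25.5, 17.1, 19.7 and 12.0 in the same order. TCF7L2 and ZNRF3 followed with FPKM between 3.63 and 6.05, and their order differed between libraries. In sc the FPKM intervals of DKK3, ZNRF3 and TCF7L2 overlapped from each gene to the next, as did those of AXIN2 and TCF7. The interval of DKK3 also overlapped that of TCF7L2 in shDCBLD2, and those of AXIN2 and TCF7 overlapped in the vector control. NKD1 had an FPKM between 0.31 and 0.33 in 3 libraries and of 1.28 in the library labelled overexpression, where its interval overlapped that of LEF1 (1.29). RNF43 was sixth by FPKM in sc (3.63) and in the library labelled overexpression (3.68, with an interval that overlapped that of TCF7L2), but eighth in shDCBLD2 (0.41), where its interval overlapped that of NKD1, and in the vector control (0.62).

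Among the secreted antagonists, DKK1 (ENSG00000107984; chromosome 10, bases 54074056 to 54077802 as deposited, the build not named in the file) had 5215 counts in sc, 2849 in shDCBLD2, 9134 in the vector control and 3909 in the library labelled overexpression. The levels were 267, 132, 498 and 237 CPM. The vector control stood highest and shDCBLD2 lowest, 3.77-fold apart, and all neighbours in this order differed by more than counting error. DKK1 was 2.10-fold lower in the library labelled overexpression than in the vector control, with a log2 ratio of -1.07 (-1.13 to -1.02). It was 2.02-fold lower in shDCBLD2 than in sc, with a log2 ratio of -1.01 (-1.08 to -0.95). This value lies at the edge of the rule: with DESeq2 size factors the log2 ratio was -0.99 and the call was lost. The controls differed from each other almost as much, with a log2 ratio of 0.90 (0.85 to 0.95) for the vector control against sc. Taken against sc, the log2 ratio in the library labelled overexpression was -0.17 (-0.23 to -0.11), under 2-fold. DKK3, a related secreted glycoprotein, had 625, 559, 744 and 843 counts in sc, shDCBLD2, the vector control and the library labelled overexpression. Its log2 ratios were 0.33 (0.19 to 0.48) in the library labelled overexpression against the vector control, -0.30 (-0.47 to -0.14) in shDCBLD2 against sc and 0.34 (0.19 to 0.50) between the controls, all under 2-fold. DKK1 and DKK3 overlap no other gene in the deposited coordinates.

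The Frizzled ligases differed in how far they moved. RNF43 (ENSG00000108375; chromosome 17 from 56429861 to 56494956 in the deposited coordinates) had 520 counts in sc, 66 in shDCBLD2, 87 in the vector control and 459 in the library labelled overexpression. The level was thus high in sc and the library labelled overexpression, which differed by less than counting error, and low in the other libraries. RNF43 was 8.43-fold lower in shDCBLD2 than in sc, with a log2 ratio of -3.08 (-3.51 to -2.75). It was 5.76-fold higher in the library labelled overexpression than in the vector control, with a log2 ratio of 2.53 (2.22 to 2.90). Between the controls RNF43 was 5.51-fold lower in the vector control, with a log2 ratio of -2.46 (-2.83 to -2.16). The choice of control therefore sets both values. Against sc the log2 ratio in the library labelled overexpression was 0.06 (-0.12 to 0.25), and against the vector control that of shDCBLD2 was -0.61 (-1.12 to -0.15). RNF43 overlaps SUPT4H1 by 594 bases on the same strand, and SUPT4H1 had 2418, 2546, 2266 and 2580 counts in sc, shDCBLD2, the vector control and the library labelled overexpression. The RNF43 counts are uncertain, because reads from those bases may belong to either gene.

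ZNRF3, the other ligase, was likewise higher in sc and the library labelled overexpression than in the other libraries, with smaller differences. It had 762 counts in sc, 564 in shDCBLD2, 474 in the vector control and 700 in the library labelled overexpression. None of its ratios reached 2-fold: the log2 ratio was 0.71 (0.55 to 0.89) in the library labelled overexpression against the vector control, -0.57 (-0.73 to -0.42) in shDCBLD2 against sc and -0.59 (-0.76 to -0.43) between the controls. Per length, RNF43 stood at 0.634 times the level of ZNRF3 in sc (0.566 to 0.709) and at 0.609 times (0.540 to 0.686) in the library labelled overexpression. It stood at 0.109 times (0.0829 to 0.140) in shDCBLD2 and at 0.170 times (0.134 to 0.215) in the vector control. ZNRF3 overlaps ZNRF3-AS1 and ZNRF3-IT1, which had at most 6 counts in any library.

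LGR4, the R-spondin receptor, had 3085 counts in sc, 2334 in shDCBLD2, 2335 in the vector control and 1263 in the library labelled overexpression. It was lowest in the library labelled overexpression and highest in sc. Its log2 ratio in the library labelled overexpression was -0.73 (-0.83 to -0.63) against the vector control, under 2-fold, and -1.04 (-1.14 to -0.95) against sc, past it. The log2 ratio was -0.54 (-0.62 to -0.47) in shDCBLD2 against sc and -0.31 (-0.39 to -0.23) between the controls. Of the 6 R-spondins and LGR5/6 receptors, 2 passed the filter. RSPO3, an R-spondin and the most abundant gene of this list by FPKM, had 2483, 2760, 1919 and 758 counts in sc, shDCBLD2, the vector control and the library labelled overexpression. It was called lower in the library labelled overexpression, with a log2 ratio of -1.18 (-1.31 to -1.06). LGR6, another R-spondin receptor, had 85, 14, 26 and 208 counts in the same order and was called in all 3 comparisons. The log2 ratio of LGR6 was 3.06 (2.56 to 3.80) in the library labelled overexpression, -2.56 (-3.67 to -1.92) in shDCBLD2 and -1.55 (-2.31 to -0.97) for the vector control against sc. With sc as control it was 1.51 in the library labelled overexpression, and with the vector control it was -1.01 in shDCBLD2. Of all genes 6.42% were called higher and 5.35% lower in the library labelled overexpression. In shDCBLD2 5.62% were called lower, and 1.89% in the vector control against sc. LGR5 had at most 3 counts in any library. LGR4 overlaps 1 noncoding gene, which had at most 7.

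The intracellular feedback genes AXIN2 and NKD1 were measured at lower counts. AXIN2 had 196 counts in sc, 119 in shDCBLD2, 158 in the vector control and 243 in the library labelled overexpression. Its level was lowest in shDCBLD2 and highest in the library labelled overexpression, 2.67-fold apart, and sc and the vector control differed by less than counting error. The log2 ratio was 0.77 (0.48 to 1.07) in the library labelled overexpression against the vector control and -0.85 (-1.20 to -0.52) in shDCBLD2 against sc, both under 2-fold. Between the controls it was -0.22 (-0.53 to 0.09), an interval that includes no change. NKD1 (ENSG00000140807; chromosome 16 from 50582241 to 50670647 in the deposited coordinates) had 29 counts in sc, 34 in shDCBLD2, 30 in the vector control and 104 in the library labelled overexpression. Neighbours among the first 3 of these libraries did not differ beyond counting error, and the library labelled overexpression stood above them. Its log2 ratio there was 1.88 (1.35 to 2.58) against the vector control, a 3.68-fold higher level, and 2.01 (1.48 to 2.73) against sc. In shDCBLD2 the log2 ratio was 0.08 (-0.67 to 0.86) and between the controls 0.13 (-0.65 to 0.93), both with intervals that include no change. Long noncoding genes that overlap AXIN2 and NKD1 had at most 2 counts.

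**Figure D2:**
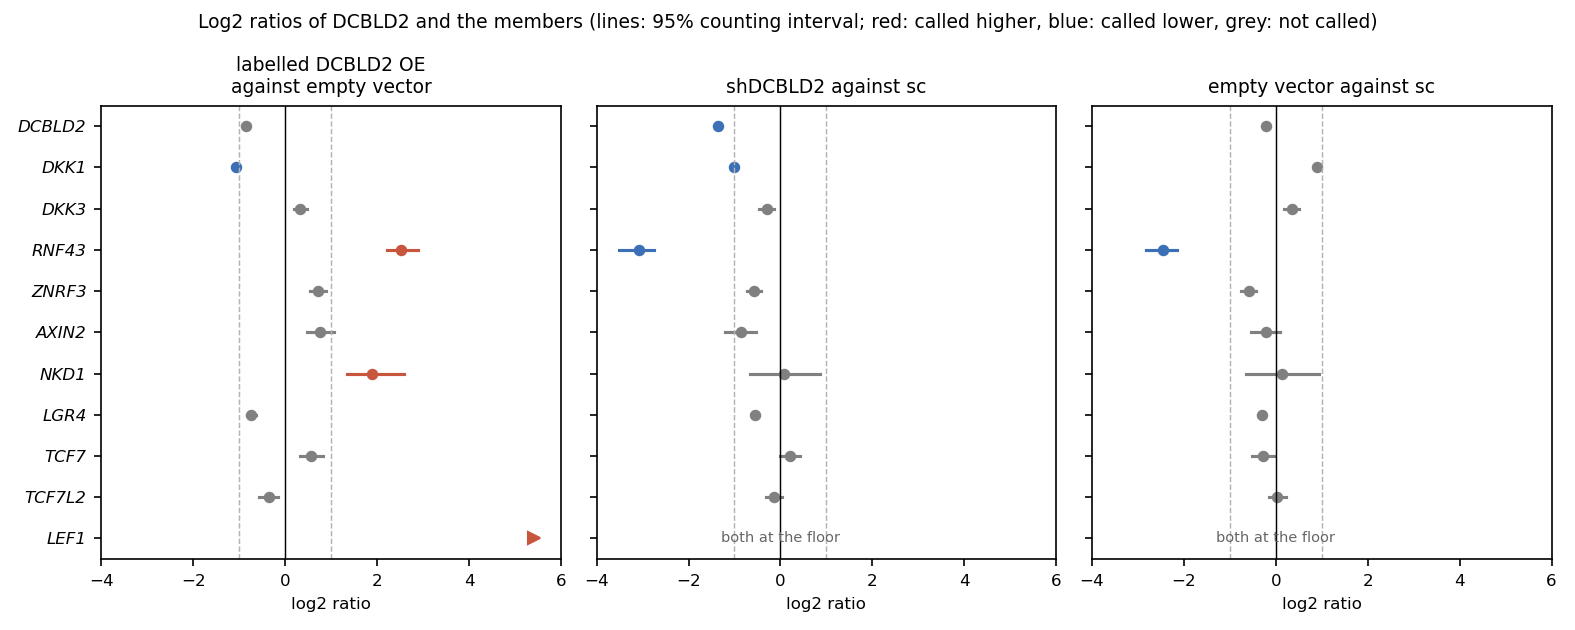
Log2 ratios (horizontal axes) of DCBLD2 and the 10 members in the 3 comparisons, with points for ratios with a prior count of 2 and lines for 95% counting intervals; dashed lines mark 2-fold. Red points were called higher, blue points lower and grey points neither; the triangle for LEF1 is a lower bound (42.6-fold) against 3 counts. RNF43 stands at 2.53 in the library labelled overexpression and at -3.08 and -2.46 in the other comparisons, and DCBLD2 itself at -0.84 in the first panel, against the label.

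Of the TCF/LEF factors, LEF1 was the one that was called. LEF1 (ENSG00000138795; chromosome 4 from 108968701 to 109090112 in the deposited coordinates) had 115 counts in the library labelled overexpression and 0 in the other libraries. Its level there was 6.97 CPM (5.75 to 8.36). The counts of 0 have upper limits of 0.189 CPM in sc, 0.171 CPM in shDCBLD2 and 0.201 CPM in the vector control. With each 0 set to the floor of 3 counts, LEF1 was at least 42.6-fold higher in the library labelled overexpression than in the vector control and at least 45.4-fold higher than in sc. These bounds leave out counting error, with which the intervals of the log2 ratios start at 5.09 and 5.18. LEF1-AS1, which overlaps it on the opposite strand, had 0, 2, 0 and 1 counts in sc, shDCBLD2, the vector control and the library labelled overexpression.

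LEF1 was 1 of 66 genes with at least 50 counts in the library labelled overexpression and at most 3 in each other library, and no other library held such a gene. Markers of other cells were set beside it. All 3 genes of 9p21, a region deleted in A549, were above 3 counts in the library labelled overexpression: CDKN2A had 2104 counts there and 0 elsewhere, MTAP 104 counts against 9 in sc, 33 in shDCBLD2 and 11 in the vector control, and CDKN2B 7 counts against 0. The 3 genes summed to 0.460 CPM in sc, 1.53 CPM in shDCBLD2, 0.599 CPM in the vector control and 134 CPM in the library labelled overexpression, with CDKN2A the most abundant in the last and MTAP in the others. Of 10 fibroblast markers, 8 were above 3 counts in the library labelled overexpression, against 6 in sc, 5 in shDCBLD2 and 5 in the vector control. They summed to 39.2, 60.5, 46.1 and 86.3 CPM in sc, shDCBLD2, the vector control and the library labelled overexpression, with COL1A1 the most abundant in each. Of the 5 that passed the filter, 3 were called higher in the library labelled overexpression than in the vector control: COL1A2 with 67 counts against 0, COL3A1 with 68 against 6 and COL6A3 with 77 against 20, where 6.42% of all genes were. COL1A2 and COL3A1 passed the filter only through the library labelled overexpression. COL1A2 had 17 counts in sc and 1 in shDCBLD2. THY1, which passed the filter and was not called, had 114 counts in the library labelled overexpression against 160 in the vector control. POSTN had 42 counts in the library labelled overexpression and 0 elsewhere, while DCN had 4, LUM 1 and FAP 0. Of 8 blood markers, 3 were above 3 counts in the library labelled overexpression and 2 in each other library. Their sums were 7.82, 3.85, 14.9 and 21.7 CPM in the same order of libraries, most of it CD14, and PTPRC was at 0 in all. Of 10 genes fixed as markers of HEK293T cells, 7 were above 3 counts in each library. These summed to 312, 430, 245 and 245 CPM, with PEG10 the most abundant by FPKM in sc and shDCBLD2 and PCSK1N in the vector control and the library labelled overexpression, and STMN2 and SYT4 at 0 in all. Of the 6 of these markers past the filter 1, LIN28B, was called higher in the library labelled overexpression, where 6.42% of all genes were. It had 78 counts there against 27 in the vector control. PEG10 had 1341 counts against 2549 and PCSK1N 1874 against 1072 in the same libraries, both under 2-fold. The part of other cells in the LEF1 counts, or in the counts of any other gene in the library labelled overexpression, was not tested.

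TCF7 and TCF7L2 varied less. TCF7 had 318 counts in sc, 407 in shDCBLD2, 246 in the vector control and 330 in the library labelled overexpression. Its log2 ratio was 0.57 (0.33 to 0.82) in the library labelled overexpression against the vector control, 0.21 in shDCBLD2 against sc (an interval from just under 0 to 0.43) and -0.28 (-0.52 to -0.03) between the controls. TCF7 overlaps SKP1 on the opposite strand by 2924 bases, and SKP1 had 3481, 4007, 3509 and 1948 counts in sc, shDCBLD2, the vector control and the library labelled overexpression. Whether counting used the strand is not given in the sources used here, so the TCF7 counts are uncertain. TCF7L2 had 512 counts in sc, 512 in shDCBLD2, 491 in the vector control and 345 in the library labelled overexpression. Its level spanned 1.28-fold, the narrowest range of the members, and no neighbouring libraries in its order differed beyond counting error. The log2 ratio was -0.35 (-0.56 to -0.15) in the library labelled overexpression against the vector control and -0.14 (-0.32 to 0.04) in shDCBLD2 against sc. Between the controls it was 0.03 (-0.15 to 0.21), a value that changed sign with library totals as the scaling.

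Set beside TCF7L1, the fourth gene of the TCF/LEF family, TCF7L2 had the highest FPKM of the family in every library. It made up 53.2% of the summed FPKM of the 4 genes in sc, 48.5% in shDCBLD2, 56.7% in the vector control and 38.5% in the library labelled overexpression. In the library labelled overexpression the counting intervals of the FPKM of TCF7L2 (4.12) and TCF7L1 (3.32) overlapped. TCF7L1 took between 29.0% and 32.2%, and TCF7 between 14.3% and 19.3%. LEF1 took 12.0% in the library labelled overexpression. The summed FPKM was 9.98, 9.72, 9.17 and 10.7 in sc, shDCBLD2, the vector control and the library labelled overexpression.

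**Figure D3:**
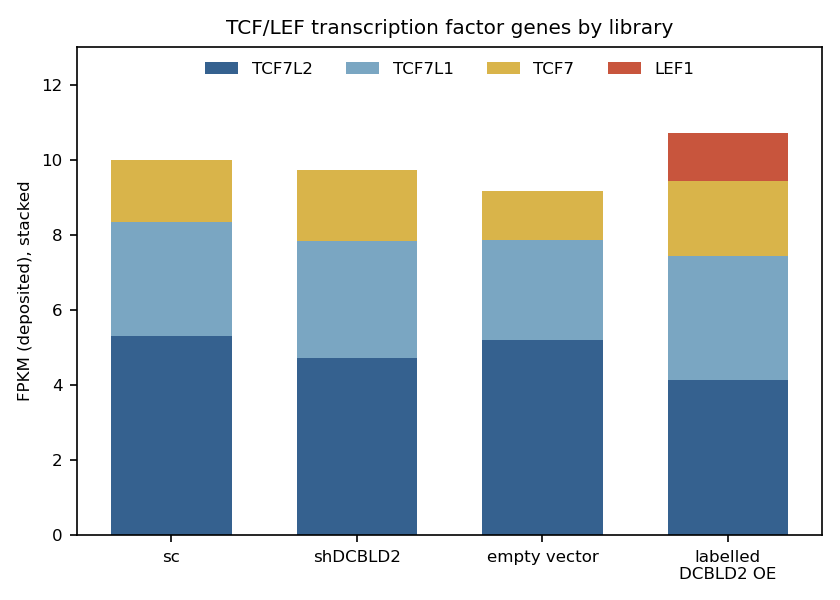
Deposited FPKM of the 4 TCF/LEF genes (vertical axis, stacked, from 0) in each library, 1 library per condition. The sum lies between 9.17 and 10.7 in all 4 libraries, and LEF1 adds 1.29 in the library labelled overexpression only.

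The rest of the pathway was described from fixed lists, with counts over the genes past the filter. The lists were chosen with earlier results of these data known, so their counts and medians are descriptions. Of 19 Wnt ligands, 10 passed, WNT2B and WNT3A only through the library labelled overexpression. In that library 4 of the 10, WNT3A among them, were called higher and 0 lower than in the vector control, where 6.42% and 5.35% of all genes were. The median log2 ratio was 0.64 against -0.04 over all genes. WNT3A, a ligand of the β-catenin branch, had 83 counts there and 1, 1 and 3 in sc, shDCBLD2 and the vector control, with a log2 ratio of 4.26 (3.35 to 7.25). The log2 ratio of WNT4 was 2.74 (2.06 to 3.88), that of WNT5B 1.44 (1.08 to 1.87) and that of WNT9A 1.14 (0.77 to 1.57). With sc as control WNT9A had a log2 ratio of 0.71, under 2-fold. With that control the log2 ratio was 5.04 for WNT3A, 1.60 for WNT4 and 2.30 for WNT5B. In shDCBLD2 1 ligand, WNT9A, was called lower, with a log2 ratio of -1.49 (-2.07 to -1.03), and 0 were called higher, with a median of 0.13. Of all genes 5.62% were called lower and 1.16% higher in shDCBLD2. Between the controls, where the median was 0.08, WNT11 was called higher, with a log2 ratio of 1.11 (0.54 to 1.80), and WNT4 lower with -1.14 (-2.30 to -0.29). In that comparison 2.22% of all genes were called higher and 1.89% lower. WNT7B was the most abundant ligand in every library by FPKM, between 59.0 and 74.6, and was not called. Of 15 receptors and co-receptors, 14 passed and 1 was called, FZD9, higher in the library labelled overexpression, where 6.42% of all genes were. Its log2 ratio was 1.34 (1.01 to 1.72). The median of the receptors was 0.39 in that library, -0.18 in shDCBLD2 and 0.01 between the controls. All genes stood at -0.04, 0.01 and -0.01 in the same order.

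Of 16 other antagonists outside the members, mostly secreted or membrane proteins but with NKD2, which like NKD1 is intracellular, 8 passed and 6 had at most 3 counts in every library. In the library labelled overexpression 0 of the 8 were called higher and 2 lower, where 6.42% and 5.35% of all genes were: SFRP5 with a log2 ratio of -1.35 (-2.29 to -0.64) and TRABD2A with -1.54 (-2.02 to -1.14). The median was -0.51. Without the filter 2 more of the 16 would be called, both higher, where 1873 of all 57905 genes were. They are SOSTDC1 with 8 counts and APCDD1 with 7, against 0 in the vector control. In the other lists 5 of 19 ligands, 2 of 15 receptors, 2 of 6 R-spondins and LGR5/6 and 8 of 26 targets would then be called higher. SFRP5 and TRABD2A had also been called higher in the vector control than in sc, with log2 ratios of 1.14 (0.49 to 1.95) and 1.24 (0.88 to 1.64), as had KREMEN2 with 1.04 (0.69 to 1.44). These are 3 of the 8, where 2.22% of all genes were called higher. With sc as control neither SFRP5 (-0.21) nor TRABD2A (-0.31) reached 2-fold in the library labelled overexpression. NOTUM, a secreted enzyme that inactivates Wnt ligands, was called lower in shDCBLD2, with 9 counts against 32 in sc and a log2 ratio of -1.74 (-3.22 to -0.87). It is 1 of the 8, where 5.62% of all genes were called lower. SFRP1 stood at 50.7 CPM in sc and 99.7 CPM in shDCBLD2 and was not called. Of the 8, 3 had log2 ratios above 0 in shDCBLD2 against sc. The median of these antagonists was -0.17 in shDCBLD2 and 0.48 between the controls. KREMEN2 came under 2-fold with library totals as the scaling.

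Of 15 genes of the destruction complex and Dishevelled, all passed and 0 were called in any of the 3 comparisons, in which between 1.16% and 6.42% of all genes were called in each direction. Their median log2 ratio was -0.08 in the library labelled overexpression, 0.08 in shDCBLD2 and -0.16 between the controls, where all genes stood at -0.04, 0.01 and -0.01. CTNNB1, which encodes β-catenin, had log2 ratios of -0.22 (-0.29 to -0.15), 0.23 (0.18 to 0.29) and -0.22 (-0.28 to -0.16) in the same order. Of 12 nuclear partners of the TCF factors, all passed and 2 co-repressor genes were called higher in the library labelled overexpression, where 6.42% of all genes were. TLE2 had a log2 ratio of 1.17 (0.99 to 1.37) and TLE3 one of 1.02 (0.87 to 1.18), while 0 nuclear partners were called in the other comparisons. The median was 0.28 in the library labelled overexpression, -0.05 in shDCBLD2 and 0.11 between the controls. With sc as control TLE3 had a log2 ratio of 0.51, under 2-fold.

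Of 26 other β-catenin target genes, 21 passed the filter, CCND2 only through the library labelled overexpression. In that library 7 of the 21 were called higher and 1 lower than in the vector control, where 6.42% and 5.35% of all genes were. The median log2 ratio was 0.53 against -0.04 over all genes. CCND2, a D-type cyclin, had 242 counts there against 0 in the vector control and was at least 89.7-fold higher, with 0 set to 3 counts and counting error left out (the interval of its log2 ratio starts at 6.18). CCND2 and WNT3A, like LEF1, meet the rule of the 66 genes counted almost only in that library, and the part of other cells in their counts was not tested either. MMP7, a matrix metalloproteinase, had 291, 79, 174 and 1053 counts in sc, shDCBLD2, the vector control and the library labelled overexpression. It was called higher in the library labelled overexpression, with a log2 ratio of 2.74 (2.52 to 2.99), and lower in shDCBLD2, with -1.99 (-2.40 to -1.66). JUN, an AP-1 subunit, had 972 counts in the vector control, 2426 in the library labelled overexpression and a log2 ratio of 1.47 (1.36 to 1.58). In shDCBLD2 JUN had a log2 ratio of 0.94 (0.83 to 1.05), under 2-fold. FOSL1, another AP-1 subunit, had a log2 ratio of -1.05 (-1.24 to -0.86) in the library labelled overexpression and 1.65 (1.52 to 1.78) in shDCBLD2. In shDCBLD2 2 targets were called higher (FOSL1 and TNFRSF19) and 2 lower (MMP7 and EPHB3), with a median of 0.04. Of all genes 1.16% were called higher and 5.62% lower in shDCBLD2. Between the controls 1 target, L1CAM, was called lower, where 1.89% of all genes were. It had a log2 ratio of -1.22 (-1.62 to -0.88), and the median of the targets was -0.25. With sc as control FOSL1 had a log2 ratio of -0.70 in the library labelled overexpression, under 2-fold, and EPHB3, TIAM1 and L1CAM, called higher there, also came under 2-fold. With the vector control in place of sc, EPHB3 and TNFRSF19 did so in shDCBLD2, as did TNFRSF19 with a prior count of 5 (0.97). Of the 23 other pathway genes called in any comparison, 11 overlap another gene in the deposited coordinates. The genes that overlap WNT5B, KREMEN2, TRABD2A, EPHB3, TIAM1 and L1CAM reached at least 56 counts in a library, so the counts of these 6 are uncertain. For the other 5 the overlapping genes had at most 2 counts.

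**Figure D4:**
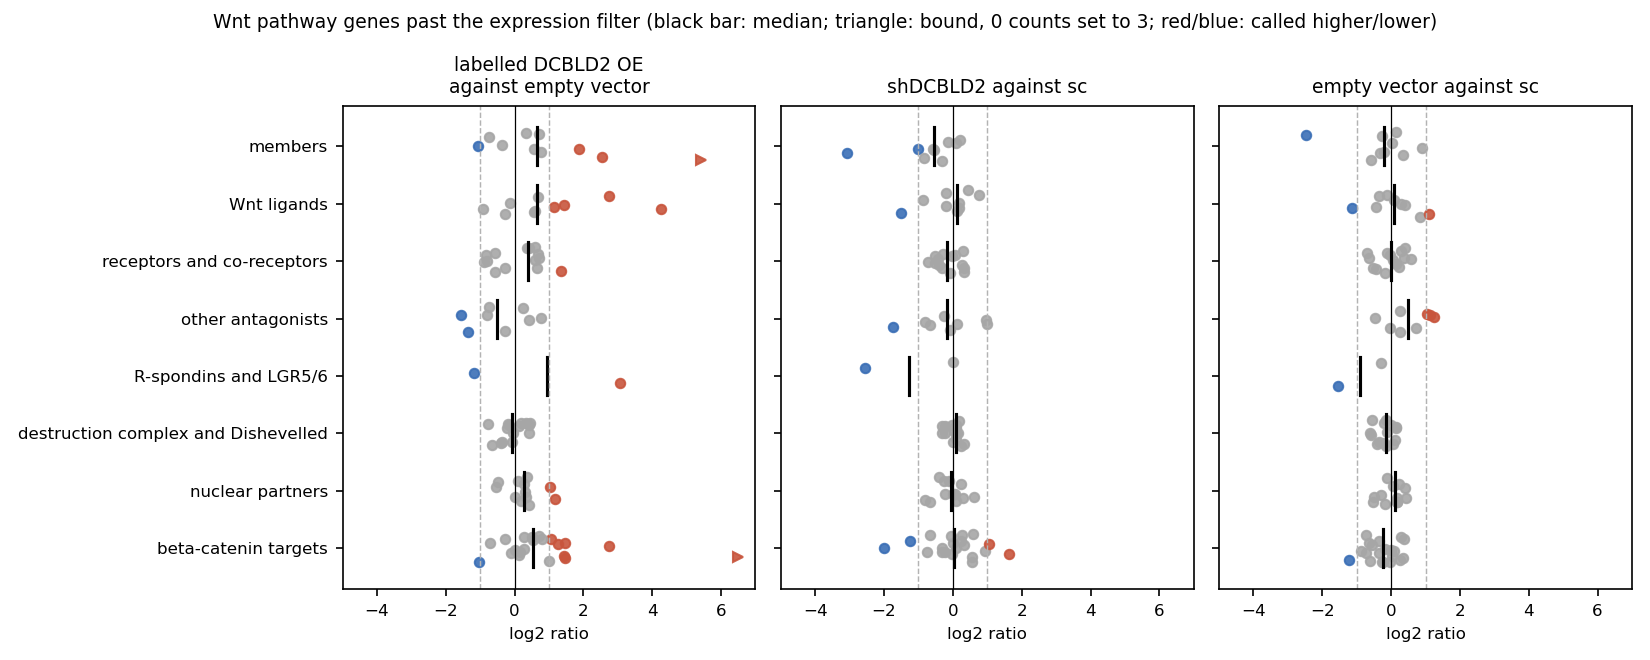
Log2 ratios (horizontal axes) of the members and of 7 fixed lists of Wnt pathway genes past the expression filter, with 1 point for each gene, black bars for medians and dashed lines at 2-fold. Red and blue points were called higher and lower, grey points neither, and triangles are bounds with a count of 0 set to 3. The destruction complex and Dishevelled genes lie within 2-fold in all 3 comparisons, and LEF1, WNT3A and CCND2 lie farthest to the right in the library labelled overexpression.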

How the data were processed

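RNA was sequenced from 4 A549 libraries, 1 per condition. For every gene the authors deposited raw counts and FPKM, which equal the counts divided by exonic gene size and library total. The submitters' processing notes list mm9, a mouse build, although samples and gene identifiers are human. The aligner, counting program, annotation and use of strand are not given in the sources used here. Exonic gene sizes were used to set levels per length.

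Counts were scaled by TMM factors (edgeR 4.0.16, R 4.3.3), with DESeq2 1.42.0 size factors as an alternative. Further steps used Python 3.11.15, numpy 2.4.6, pandas 2.3.3, scipy 1.17.1 and matplotlib 3.10.9 and were tested on simulated data. Log2 ratios used a prior count of 2 and exact Clopper-Pearson 95% intervals, and levels have exact Poisson intervals. Calls needed 2-fold and an interval that excluded no change. A ratio against 0 counts is a bound with that count set to 3. A symbol on several rows (246 symbols) was read from the row with the most counts.

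The members and the lists were chosen with earlier results of these data known. Genes named were DCBLD2, the members, the called genes of each pathway list (at most the 3 highest and 3 lowest per comparison), genes overlapping a member, and, for the 3 members with the widest range of log2 CPM (prior count 2), the 3 genes with the nearest centred profile. Marker genes came from lists fixed beforehand, but which of them to name was chosen after their values were seen. The same holds for every other gene named, among them TCF7L1, EPHB3, TIAM1, WNT7B, CTNNB1, LGR5 and WNT2B, and for the overlaps of other pathway genes. Alternatives changed the scaling factors, the prior count (0.5 or 5), the filter (none or a mean of at least 5 CPM), the threshold (1.5-fold), the control library and the unit (FPKM). Promoters are from RefSeq (GRCh38.p14), and no coordinates were moved between builds.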

Additional observations from a re-analysis of the deposited data

How the results depend on the processing

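No paired analysis was possible because each condition has 1 library and the labels give no shared replicate numbers. For the same reason no library could be left out within a condition. Main settings called 1644 of the 13966 genes past the filter in the library labelled overexpression relative to the vector control. The 1.5-fold threshold and the change of control also tested 13966 genes, and no filter tested 57905. The count was 2883 with no filter on expression (1873 higher and 1010 lower), 832 with the filter at 5 CPM (339 higher and 493 lower) and 4273 at a 1.5-fold threshold (1789 higher and 2484 lower). Members called in that comparison went from 4 to 2 with the filter at 5 CPM, which removes NKD1 and LEF1. They went to 7 at 1.5-fold, which adds ZNRF3, AXIN2 and LGR4, where 4273 of 13966 genes were called. With sc as control 2382 genes were called, 1128 higher and 1254 lower, so that most were lower where the main settings gave 897 higher and 747 lower. With that control 3 members were called, of which NKD1 and LEF1 were among the main 4 and LGR4 was not.

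For shDCBLD2 against sc, 947 genes were called. The count was 1689 with no filter, 397 with the filter at 5 CPM, 2307 at 1.5-fold and 1430 against the vector control. Members called went from 2 to 1 with DESeq2 size factors (RNF43) and to 1 against the vector control (DKK1). They went to 3 at 1.5-fold, which adds AXIN2, where 2307 of 13966 genes were called. For the vector control against sc, 574 genes were called, 1118 with no filter and 180 with the filter at 5 CPM. At 1.5-fold, where 1919 of 13966 genes were called, 3 members were called in place of 1. These counts move with how many genes are tested and with the threshold; the cause of the other differences was not tested.

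Alternatives chosen after seeing the data were to leave out genes at or under 3 counts in the other 3 libraries, which gave 1593 genes and 3 members in the first comparison, and TMM factors without the library labelled overexpression, which gave 950 and 576 genes in the others with 2 members and 1. Of 28 member ratios, 0 changed sign with DESeq2 size factors or another prior count and 1 (TCF7L2 between the controls) with library totals. FPKM gave 27 ratios, of which 1 changed sign, and none for LEF1. The prior count moved LEF1 most, from a log2 ratio of 6.07 to 8.05 with a prior of 0.5 and to 4.78 with a prior of 5. With the other control 0 of 10 ratios changed sign in the library labelled overexpression, and 2 of 9 (ZNRF3 and NKD1, neither called) did in shDCBLD2. Of 19 other pathway genes called in the library labelled overexpression, 8 fell under 2-fold with sc as control, as did 2 of 7 in shDCBLD2 taken against the vector control.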

Other observations

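The genes with the profiles nearest to the members with the widest range over the 4 libraries were found by Euclidean distance of centred log2 CPM, a description over 4 libraries only. For RNF43 they were SLC7A7 (distance 0.29), NPNT (0.35) and ANXA13 (0.37). SLC7A7, an amino acid transporter subunit, had 883 counts in sc, 146 in shDCBLD2, 191 in the vector control and 917 in the library labelled overexpression. ANXA13, an annexin, had 310, 53, 71 and 354 counts in the same order, and NPNT, an extracellular matrix protein, had 61, 4, 7 and 39. All 3 genes were thus high in sc and the library labelled overexpression and low in the other libraries, as RNF43 was.

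For NKD1 the nearest were GLB1L2 (0.16), SESN2 (0.17) and TSC22D3 (0.21). SESN2, a stress-inducible sestrin, had 239 counts in sc, 277 in shDCBLD2, 283 in the vector control and 870 in the library labelled overexpression. GLB1L2, a galactosidase-like gene, had 130, 134, 124 and 390 counts in the same order. For LEF1 the nearest were GH1, HLA-DQB1 and ITPRIPL1, with 127, 101 and 96 counts in the library labelled overexpression and 0 in each other library. The DCBLD2 transcript was lower in that library than in the vector control, against the label.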
